A study of Mus musculus with 7 samples.

Results

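The transcripts described here are those of 33 genes of the lysosome. The list holds soluble enzymes and cofactors of its lumen and 7 proteins of its membrane. The genes were chosen by symbol, and 33 of 33 were found among the 13587 genes listed in the deposited tables. The cells were B16 mouse melanoma, of C57BL/6 origin, as a stable clonal line that had been passaged at most 5 times. Detached cells met 10 nM recombinant mouse interferon gamma (IFNγ) for 5 h, or medium only for as long (mock). They were then washed 3 times and plated at 35000 cells per well, and polyA RNA was sequenced at labelled times of 23.5, 48 and 91 h in both arms and at 0 h (T0). All groups share the line, which is 1 clone, and the labels name no further genetic change in any of them. The labels give neither the moment from which the hours were counted nor what the T0 cells had been through. The design asks what a passing exposure to IFNγ leaves behind over the following days.

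Lysosomes are acidic organelles in which proteins, glycans and lipids are broken down, and their enzymes reach them mostly by a mannose phosphate tag that sorting receptors bind. The transcription factors TFEB, TFE3 and MITF bind a short DNA motif built on the letters CACGTG near many lysosomal genes, and MITF is also the master regulator of pigment cells. In melanoma cells the pathway overlaps with the making of melanosomes, pigment organelles related to lysosomes. IFNγ is known in immune cells for raising the proteases that prepare antigens for presentation.

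Promoters are shown because many of the members were above T0 in mock cells at 91 h, as described below. The RefSeq table of promoters (build GRCm38.p6, 250 bases before to 50 after a start) matched 30 of the 33 genes, and not Ctsb, Npc1 or Asah1. The letters CACGTG occurred in 12 of those 30 promoters (40%), against 8.09% of the genes in the table. All motifs were searched on both strands. The longer form TCACGTG, which contains CACGTG, occurred in 11 of 30 (36.7%), against 4.29% of genes. GTCACGTG, which contains both, occurred in 10 (33.3%, against 2.55% of genes), and the 10-base palindrome that begins with it occurred in 1 (that of Cln3), against 0.37% of genes. Capitals below mark each CACGTG core with the neighbouring letters that match that palindrome, read 5′ to 3′ on the gene's strand. Lamp1 (chr8:13159075-13159160, plus strand) held 4 cores between 61 and 15 bases before the start. Mcoln1 (chr8:3500423-3500504, plus strand) and Gla (chrX:134601169-134601255, minus strand) held 2 cores each. Ctsd (chr7:142387895-142387950, minus strand) is shown at the core 98 bases before its start. Ctsa (chr2:164833736-164833772, plus strand) held 1 core 12 bases before the start. Ctsl (chr13:64370726-64370770, minus strand) is shown for contrast, since its core matched no letter beyond the 6 of CACGTG.
Lamp1: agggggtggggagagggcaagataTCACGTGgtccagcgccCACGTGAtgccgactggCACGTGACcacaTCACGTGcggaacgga
Mcoln1: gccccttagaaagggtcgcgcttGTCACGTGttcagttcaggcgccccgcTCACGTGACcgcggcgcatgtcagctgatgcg
Gla: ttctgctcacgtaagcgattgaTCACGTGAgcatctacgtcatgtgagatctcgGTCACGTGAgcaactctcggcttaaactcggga
Ctsd: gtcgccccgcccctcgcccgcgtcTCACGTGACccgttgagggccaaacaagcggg
Ctsa: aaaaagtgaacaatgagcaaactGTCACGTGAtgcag
Ctsl: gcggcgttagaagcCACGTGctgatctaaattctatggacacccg
These matches are a description of letters in a window. No binding was measured here.

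The values rest on 14 libraries, 2 per group, whose read numbers were solved from the deposited group means. A level is given in normalised reads, the reads of a library over its size factor, and depth ran from 12894823 to 24459426 reads in recovered genes. Nothing in the labels tells whether the libraries of a group were separate cultures. The p-values therefore cover the spread between these libraries alone, which may be technical. The 2 IFNγ libraries at 48 h stand apart from each other. Their log2 ratio had an SD of 0.419 across genes with a mean level of 1000 or more, against 0.0668 to 0.15 in the other groups. Of 7 melanoma markers 7 were listed, with summed levels of 368325 to 549416 over the 7 groups. Of 12 myeloid markers 2 were listed (Cd68 and Lyz2, summing to 27.5 to 97.1), and Ptprc, Csf1r and Adgre1 were not. Of 5 T cell markers 1 was listed (Lck, 25.5 to 143) and of 4 endothelial markers 1 (Vwf, 166 to 933). Of 5 fibroblast markers 4 were listed (summing to 262 to 490), and of 4 keratinocyte markers 0. In bulk RNA, fewer cells of a type and less RNA per cell cannot be told apart.

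Cells that had met IFNγ held slightly more transcripts of many lysosomal genes than mock cells, at 23.5 h and again at 91 h. At 23.5 h, 19 of 32 tested members were higher with IFNγ and 2 were lower, where 8.55% of all tested genes were higher and 6.06% lower (14.6% in all). The members' median log2 difference was 0.18, beside 0.00 over all 12452 genes tested. At 91 h, 17 of 31 were higher and 0 lower, where 8.75% of all tested genes were higher and 7.53% lower (16.3% in all), with a median of 0.17 beside 0.00. No member reached a 2-fold difference at either time. The 13 members higher at both times were Ctsa, Ctsb, Ctsd, Ctsl, Ctsz, Tpp1, Hexa, Naglu, Neu1, Arsa, Grn, Npc2 and Cd63. How many of all genes were higher at both times was not worked out, so this count has no share to stand against. Differences are those of limma on log2(normalised reads + 1), given below with their standard errors (SE) and called at an adjusted p under 0.05 over all genes. Where groups are said to be apart or not to overlap, this describes the same libraries as the test and adds no support to it. The share of all genes without overlap was not worked out.

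The calls with IFNγ rest on the variance trend of that fit and on both libraries of a group. Without the trend 2 members (Ctsb and Grn) were higher at 23.5 h and 0 at 91 h, where 2.37% and 0.571% of all genes were. With 1 fit over all 14 libraries 1 (Scarb2) and 0 were, where 1.95% and 0.756% of all genes were. The member counts under these settings are small and not far from those shares. At 23.5 h, leaving out IFNγ library 1 or library 2 left 8 or 9 members higher, where 4.83% or 4.85% of all genes were. At 91 h leaving out IFNγ library 1 or mock library 2 left 9 or 10, where 4% or 8.38% of all genes were. No called member changed sign under any alternative run. The melanoma markers summed to 549416 with IFNγ and 425040 with mock at 23.5 h, and to 475420 and 450045 at 91 h. Of the 4 of them that could be tested, 2 were higher with IFNγ at 23.5 h and 4 at 91 h. At 23.5 h Lck summed to 63.1 with IFNγ and 35.1 with mock and Vwf to 341 and 236, both called higher, and 1 of 4 fibroblast markers was lower (304 and 363 in sum). At 91 h 1 of 2 fibroblast markers tested was lower (262 and 328), and the myeloid markers summed to 97.1 with IFNγ and 35 with mock, with Cd68 called higher. The part of these markers in the result was not tested.

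**Figure D1:**
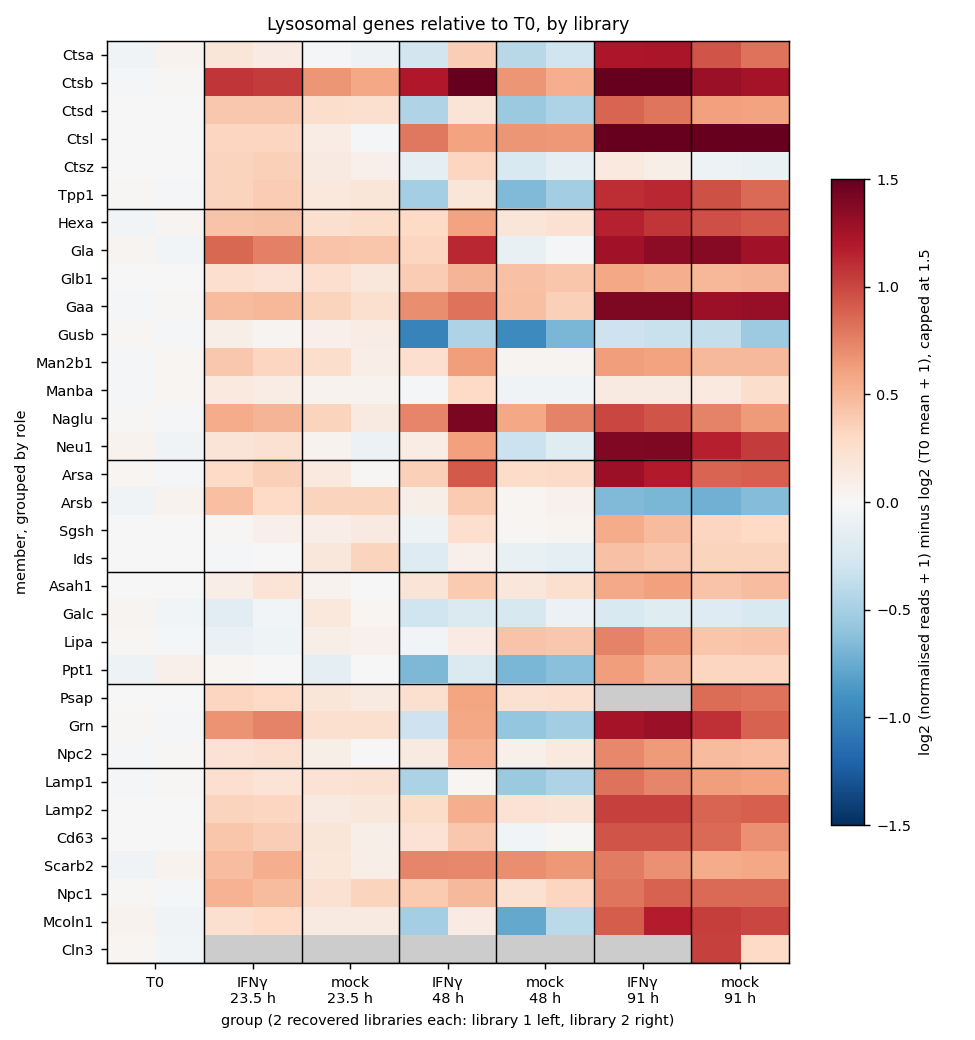
Log2 level of each of the 33 genes in each library minus the log2 of its T0 mean, with genes down the page by role and groups across it, T0 first and IFNγ left of mock at each time. Red is above T0, blue below it and grey without a library value, and the colour stops at 1.5. Most genes are red at 91 h in both arms, Arsb, Gusb and Galc are blue there, and the 2 IFNγ libraries at 48 h differ from each other.

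The 6 proteases were higher with IFNγ at both times. Ctsb, a cysteine protease, held 12205 and 12077 normalised reads with IFNγ, against 9202 and 8696 with mock, at 23.5 h (log2 difference 0.44, SE 0.04, limma adjusted p 3.6e-05). At 91 h Ctsb held 18750 and 18683 normalised reads with IFNγ, against 14248 and 13869 with mock (log2 difference 0.41, SE 0.05, limma adjusted p 2.1e-05). The libraries of both arms are well apart each time, and this is the largest difference of any member at 91 h. Ctsl, a further cysteine protease, held 2777 and 2772 normalised reads with IFNγ, against 2412 and 2199 with mock, at 23.5 h (log2 difference 0.27, SE 0.05, limma adjusted p 0.00441). At 91 h Ctsl held 15877 and 15929 normalised reads with IFNγ, against 14028 and 12275 with mock (log2 difference 0.28, SE 0.06, limma adjusted p 0.00371). Both arms had climbed steeply by then, with IFNγ above mock. Ctsz, a cysteine carboxypeptidase, held 6676 and 6814 normalised reads with IFNγ, against 5843 and 5598 with mock, at 23.5 h (log2 difference 0.24, SE 0.04, limma adjusted p 0.00307). At 91 h Ctsz held 5850 and 5619 normalised reads with IFNγ, against 5024 and 4955 with mock (log2 difference 0.20, SE 0.05, limma adjusted p 0.00791). Its IFNγ libraries were again the higher ones.

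Ctsd, the main aspartic protease of the lysosome, held 25438 and 25501 normalised reads with IFNγ, against 23091 and 22808 with mock, at 23.5 h (log2 difference 0.15, SE 0.04, limma adjusted p 0.0339). At 91 h Ctsd held 35221 and 33715 normalised reads with IFNγ, against 29571 and 29420 with mock (log2 difference 0.22, SE 0.05, limma adjusted p 0.00582). The step is small beside the level, and the libraries do not overlap. Ctsa, a carboxypeptidase that also stabilises the sialidase Neu1, held 3199 and 3083 normalised reads with IFNγ, against 2769 and 2669 with mock, at 23.5 h (log2 difference 0.21, SE 0.05, limma adjusted p 0.00957). At 91 h Ctsa held 6565 and 6582 normalised reads with IFNγ, against 5437 and 4964 with mock (log2 difference 0.34, SE 0.05, limma adjusted p 3.0e-04). Tpp1, which removes tripeptides from protein ends, held 5993 and 6149 normalised reads with IFNγ, against 5292 and 5372 with mock, at 23.5 h (log2 difference 0.19, SE 0.04, limma adjusted p 0.0106). For each of these genes both IFNγ libraries lay above both mock libraries. At 91 h Tpp1 held 10178 and 10361 normalised reads with IFNγ, against 9156 and 8562 with mock, again without overlap (log2 difference 0.21, SE 0.05, limma adjusted p 0.00668). Exons of Ctsd overlap those of Gm49369 on the same strand over 34.4% of their length. Those of Ctsl overlap the antisense gene Gm47123 over 26.8%, those of Ctsb overlap Fdft1 over 12.8% and those of Ctsa overlap Pltp over 10.5%. The strand setting of the counting is not given in the sources used here, so reads in those stretches are uncertain.

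Of the 9 glycosidases, which cut sugars from glycans and glycolipids, 5 were higher with IFNγ at 23.5 h and 3 at 91 h. Naglu, an enzyme of heparan sulfate breakdown, held 3596 and 3481 normalised reads with IFNγ, against 3082 and 2665 with mock, at 23.5 h (log2 difference 0.30, SE 0.06, limma adjusted p 0.00618). At 91 h Naglu held 4897 and 4695 normalised reads with IFNγ, against 4075 and 3786 with mock (log2 difference 0.29, SE 0.05, limma adjusted p 0.00113). The arms were apart each time. Neu1, the lysosomal sialidase, held 1159 and 1187 normalised reads with IFNγ, against 1055 and 958 with mock, at 23.5 h (log2 difference 0.22, SE 0.06, limma adjusted p 0.0278). At 91 h Neu1 held 2663 and 2683 normalised reads with IFNγ, against 2282 and 2102 with mock (log2 difference 0.29, SE 0.05, limma adjusted p 0.00175). Its IFNγ libraries lay highest both times. Hexa, a subunit of the hexosaminidase that degrades gangliosides, held 6013 and 6044 normalised reads with IFNγ, against 5285 and 5393 with mock, at 23.5 h (log2 difference 0.18, SE 0.04, limma adjusted p 0.0141). At 91 h Hexa held 9907 and 9392 normalised reads with IFNγ, against 8751 and 8417 with mock (log2 difference 0.17, SE 0.05, limma adjusted p 0.0256). There was no overlap, and Hexa shares 12.8% of its exon length with Tmem202 on the other strand.

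Gla, which removes galactose from globotriaosylceramide, held 356 and 333 normalised reads with IFNγ, against 264 and 261 with mock, at 23.5 h (log2 difference 0.39, SE 0.09, limma adjusted p 0.0107). That was the largest difference among the glycosidases. At 91 h Gla held 471 and 499 normalised reads with IFNγ, against 506 and 471 with mock, so the libraries overlapped (log2 difference -0.01, SE 0.08, limma adjusted p 0.955). Gaa, which breaks down glycogen, held 4952 and 5020 normalised reads with IFNγ, against 4479 and 4182 with mock, at 23.5 h (log2 difference 0.20, SE 0.05, limma adjusted p 0.0116). At 91 h Gaa held 9348 and 9364 normalised reads with IFNγ, against 8660 and 8814 with mock, and did not pass the test (log2 difference 0.10, SE 0.05, limma adjusted p 0.155). Man2b1, an alpha-mannosidase, just missed the threshold at 23.5 h (log2 difference 0.19, SE 0.06, limma adjusted p 0.0544). Glb1, the beta-galactosidase, had log2 differences of 0.02 at 23.5 h and 0.06 at 91 h. Gusb, the beta-glucuronidase, had -0.03 and 0.12, and Manba, the beta-mannosidase, 0.08 and -0.07. Manba held 871 and 873 normalised reads with IFNγ, against 874 and 952 with mock, at 91 h, the lowest difference there, and none of these 3 passed (log2 difference -0.07, SE 0.07, limma adjusted p 0.561).

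Of the 4 sulfatases, 1 was higher and 1 lower with IFNγ at 23.5 h, and 2 were higher and 0 lower at 91 h. Arsa, which desulfates sulfatide, held 1478 and 1539 normalised reads with IFNγ, against 1323 and 1210 with mock, at 23.5 h (log2 difference 0.25, SE 0.06, limma adjusted p 0.0112). At 91 h Arsa held 2907 and 2737 normalised reads with IFNγ, against 2199 and 2235 with mock (log2 difference 0.35, SE 0.05, limma adjusted p 2.7e-04). Its IFNγ libraries were the higher ones each time. Sgsh, which desulfates heparan sulfate, held 741 and 768 normalised reads with IFNγ, against 783 and 800 with mock, at 23.5 h (log2 difference -0.07, SE 0.06, limma adjusted p 0.486). At 91 h Sgsh held 1077 and 1013 normalised reads with IFNγ, against 912 and 899 with mock, and passed (log2 difference 0.21, SE 0.06, limma adjusted p 0.0392). The IFNγ libraries thus lay below mock at 23.5 h, without a call, and above it at 91 h. Ids, which acts on dermatan and heparan sulfate, held 1374 and 1391 normalised reads with IFNγ, against 1564 and 1742 with mock, at 23.5 h (log2 difference -0.26, SE 0.06, limma adjusted p 0.0117). This was the lowest difference of the members. At 91 h Ids held 1876 and 1838 normalised reads with IFNγ, against 1753 and 1743 with mock, and did not pass (log2 difference 0.09, SE 0.05, limma adjusted p 0.287). Arsb, a sulfatase of dermatan sulfate, overlapped between the arms at 23.5 h (log2 difference 0.04) and at 91 h (0.01). Exons of Arsa, Sgsh and Arsb overlap other annotated genes over 18.8%, 21.6% and 32.3% of their length on the other strand.

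Of the 4 lipid and thioester hydrolases, 0 were higher and 1 was lower with IFNγ at 23.5 h, and 2 were higher at 91 h. Lipa, the acid lipase of cholesteryl esters, held 2335 and 2392 normalised reads with IFNγ, against 2660 and 2613 with mock, at 23.5 h (log2 difference -0.16, SE 0.04, limma adjusted p 0.0333). At 91 h Lipa held 4165 and 3915 normalised reads with IFNγ, against 3337 and 3366 with mock (log2 difference 0.27, SE 0.05, limma adjusted p 0.00148). Both calls are without overlap and opposite in direction. The Lipa call at 23.5 h was lost without either IFNγ library there. Both Lipa calls were lost without the variance trend and with 1 fit over all libraries. Ppt1, which removes fatty acids from proteins, held 1403 and 1377 normalised reads with IFNγ, against 1236 and 1377 with mock, at 23.5 h (log2 difference 0.09, SE 0.06, limma adjusted p 0.346). At 91 h Ppt1 held 2127 and 1955 normalised reads with IFNγ, against 1721 and 1719 with mock (log2 difference 0.25, SE 0.06, limma adjusted p 0.00721). A shared value of 1377 made the arms touch at 23.5 h, and they were apart at 91 h. Galc, which degrades galactosylceramide, held 1279 and 1378 normalised reads with IFNγ, against 1590 and 1448 with mock, at 23.5 h (log2 difference -0.19, SE 0.06, limma adjusted p 0.0527). That was the second lowest difference, just short of the threshold. Asah1, the acid ceramidase, had log2 differences of 0.13 at 23.5 h and 0.14 at 91 h, with limma adjusted p-values of 0.11 and 0.06.

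All 3 cofactors and carriers were higher with IFNγ at 23.5 h, as were the 2 that could be tested at 91 h. Grn, progranulin, a secreted and lysosomal glycoprotein, held 5811 and 6092 normalised reads with IFNγ, against 4286 and 4311 with mock, at 23.5 h (log2 difference 0.47, SE 0.04, limma adjusted p 1.7e-05). At 91 h Grn held 8611 and 8899 normalised reads with IFNγ, against 7779 and 6729 with mock (log2 difference 0.27, SE 0.06, limma adjusted p 0.00493). The first of these is the largest difference of any member at 23.5 h. Npc2, a cholesterol carrier of the lumen, held 4041 and 4091 normalised reads with IFNγ, against 3706 and 3480 with mock, at 23.5 h (log2 difference 0.18, SE 0.05, limma adjusted p 0.0217). At 91 h Npc2 held 5734 and 5427 normalised reads with IFNγ, against 4841 and 4751 with mock (log2 difference 0.22, SE 0.05, limma adjusted p 0.00546). Psap, the precursor of the saposins that help enzymes reach lipids, held 16978 and 16734 normalised reads with IFNγ, against 15399 and 14894 with mock, at 23.5 h (log2 difference 0.15, SE 0.04, limma adjusted p 0.031). No library of one arm reached into the other for these genes. The IFNγ value of Psap at 91 h could not be solved into libraries. On the scale shared through T0, its group means there were 29524 with IFNγ and 24054 with mock, without a test here.

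Of the membrane proteins, 4 of 6 tested were higher with IFNγ at 23.5 h and 2 at 91 h. Scarb2, the receptor that carries glucocerebrosidase to lysosomes, held 1426 and 1510 normalised reads with IFNγ, against 1164 and 1109 with mock, at 23.5 h (log2 difference 0.37, SE 0.05, limma adjusted p 8.1e-04). At 91 h Scarb2 held 1780 and 1662 normalised reads with IFNγ, against 1526 and 1551 with mock, and did not pass (log2 difference 0.16, SE 0.06, limma adjusted p 0.0673). The IFNγ libraries were the higher ones both times. Cd63, a tetraspanin of late endosomes and melanosomes, held 6674 and 6436 normalised reads with IFNγ, against 5668 and 5290 with mock, at 23.5 h (log2 difference 0.26, SE 0.05, limma adjusted p 0.00308). At 91 h Cd63 held 9574 and 9583 normalised reads with IFNγ, against 8994 and 8007 with mock (log2 difference 0.17, SE 0.05, limma adjusted p 0.0391). The arms did not overlap. Lamp2, an abundant glycoprotein of the membrane with a role in autophagy, held 8069 and 8058 normalised reads with IFNγ, against 7073 and 7253 with mock, at 23.5 h (log2 difference 0.17, SE 0.04, limma adjusted p 0.0161). At 91 h Lamp2 held 13125 and 13032 normalised reads with IFNγ, against 11812 and 11978 with mock, apart but just short of the threshold (log2 difference 0.14, SE 0.05, limma adjusted p 0.0527).

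Lamp1, the related glycoprotein, held 15440 and 15050 normalised reads with IFNγ, against 15091 and 15227 with mock, at 23.5 h (log2 difference 0.01, SE 0.04, limma adjusted p 0.93). At 91 h Lamp1 held 22808 and 21612 normalised reads with IFNγ, against 20156 and 19848 with mock (log2 difference 0.15, SE 0.05, limma adjusted p 0.0481). The arms overlapped at 23.5 h and were apart at 91 h, and exons of Lamp1 overlap Grtp1 over 9.31% of their length. Npc1, the cholesterol transporter of the membrane, held 4005 and 3868 normalised reads with IFNγ, against 3264 and 3496 with mock, at 23.5 h (log2 difference 0.22, SE 0.05, limma adjusted p 0.00911). At 91 h Npc1 held 4840 and 5132 normalised reads with IFNγ, against 5038 and 5028 with mock, which overlap (log2 difference -0.01, SE 0.05, limma adjusted p 0.877). Mcoln1, the cation channel TRPML1, had log2 differences of 0.13 at 23.5 h and 0.02 at 91 h and passed at neither. Cln3, a membrane protein whose loss causes a storage disease of childhood, was listed only at T0 and in mock cells at 91 h, so it has no IFNγ comparison.

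**Figure D2:**
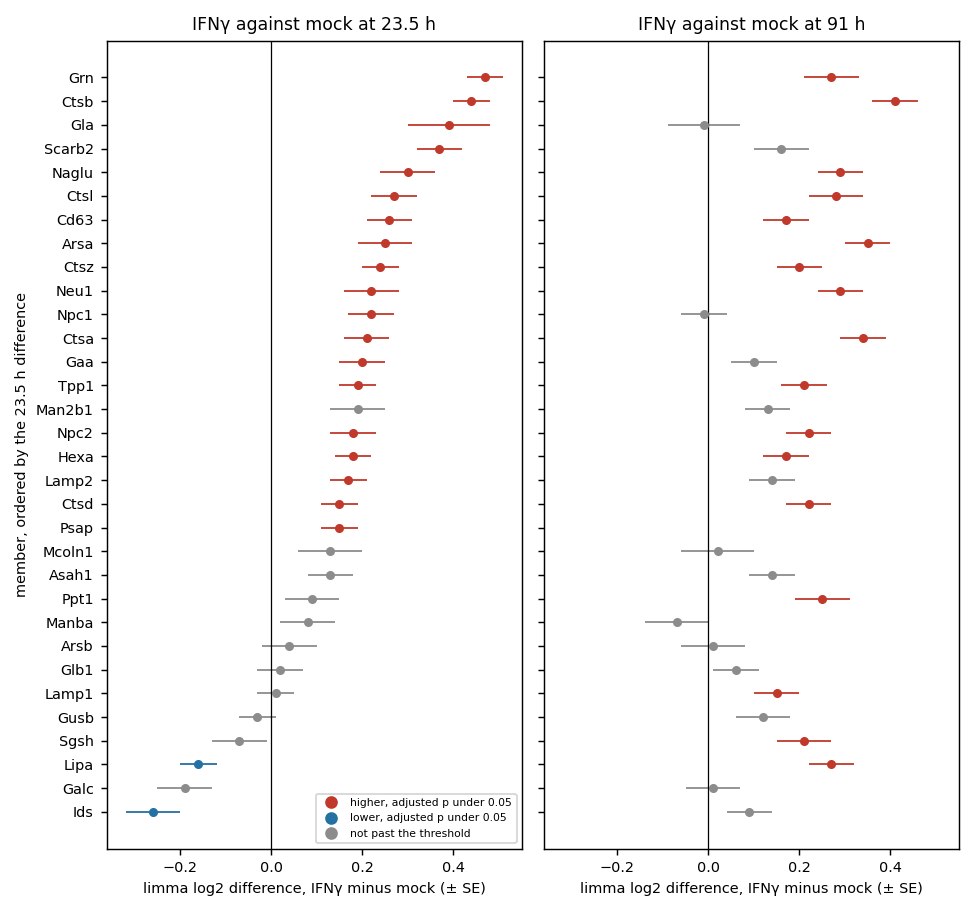
Limma log2 difference of IFNγ minus mock per member at 23.5 h (left) and 91 h (right), in the order of the 23.5 h values. Bars are standard errors, red and blue points passed an adjusted p of 0.05 and grey ones did not. At 23.5 h the values run from -0.26 (Ids) to 0.47 (Grn), and at 91 h from -0.07 (Manba) to 0.41 (Ctsb).

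The effect of IFNγ differed between 23.5 and 91 h for 4 of the 31 members tested for it, 2 upward and 2 downward. Of all tested genes 3.94% changed upward and 5.34% downward (9.29% in all). Each value is the difference at 91 h minus that at 23.5 h over 8 libraries. For Lipa, lower with IFNγ at the first time and higher at the second, it was a log2 value of 0.43 ± 0.06 (SE, limma adjusted p = 7.4e-04). For Ids it was a log2 value of 0.34 ± 0.08 (SE, limma adjusted p = 0.0136). For Gla, where the arms met at 91 h, it was a log2 value of -0.40 ± 0.12 (SE, limma adjusted p = 0.0475), and for Npc1 a log2 value of -0.23 ± 0.07 (SE, limma adjusted p = 0.0448). Sgsh just missed, at a log2 value of 0.27 ± 0.08 (SE, limma adjusted p = 0.0544). Without the variance trend only the Lipa call passed, where 0.886% of all genes changed upward, and with 1 fit over all libraries 0 did. The Lipa call passed without each single library, whereas that of Gla was lost without any 1 of the 8 and that of Npc1 without 6 of them. The Ids call was lost without either IFNγ library at 23.5 h or without IFNγ library 1 at 91 h. For the 6 proteases the change ran from -0.04 to 0.13 and passed for none.

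**Figure D3:**
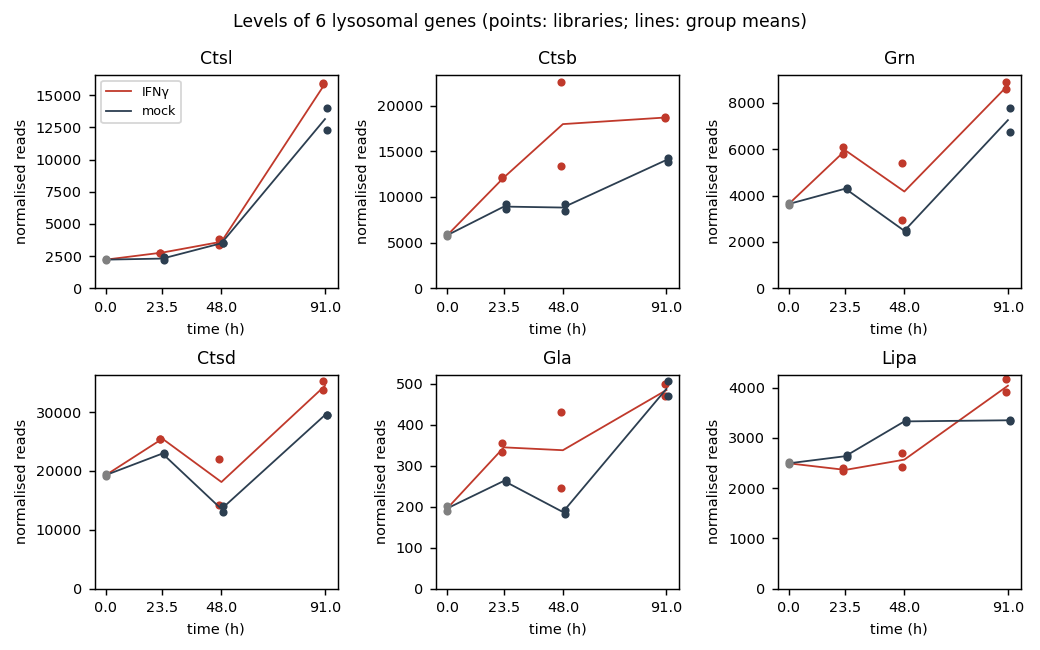
Normalised reads of 6 genes over time in hours, on linear axes that start at 0, with red for IFNγ, dark blue for mock and grey for T0; points are libraries and lines join group means. Ctsl climbs to between 12275 and 15929 at 91 h in both arms, Grn and Ctsd fall below T0 at 48 h in mock cells, and the IFNγ points of Ctsb and Grn lie far apart at 48 h.

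At 48 h the comparison of IFNγ with mock gave no call. Of 32 members tested 0 passed, as did 0 of 12652 genes by limma (0% of genes). At an unadjusted p under 0.05 there were 6 members and 847 genes (6.69%). The members' median log2 difference was 0.23, beside -0.01 over all genes. The difference was positive for 30 of 32 members and for 5985 of 12652 genes. The 2 IFNγ libraries differed in 1 direction over nearly all members. Library 2 was higher than library 1 in 30 of 32, by a median log2 ratio of 0.36, while over all genes with a mean of 1000 or more it was higher in 2309 and lower in 2585. Grn held 2930 and 5418 normalised reads with IFNγ, against 2425 and 2530 with mock. Ctsb held 13398 and 22577 normalised reads with IFNγ, against 9207 and 8479 with mock. Gla held 246 and 431 normalised reads with IFNγ, against 182 and 192 with mock. In these 3 genes both IFNγ libraries lay above both mock libraries, by very unequal steps. Lipa and Galc were the members with a negative difference. Lipa held 2424 and 2709 normalised reads with IFNγ, against 3348 and 3309 with mock (log2 difference -0.38, SE 0.12, limma adjusted p 0.624).

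These results depend on which IFNγ library is kept. Without IFNγ library 1, 22 members were higher and 0 lower, where 13.1% of all genes were higher and 12.8% lower. The log2 difference of Ctsb was then 1.35 and that of Grn 1.13. Without IFNγ library 2, 1 member was higher (Ctsb, 0.60) and 1 lower (Lipa, -0.46), where 2.24% of genes were higher and 1.45% lower. In both of these fits the lone library is assumed to vary like the others. With 1 fit over all 14 libraries 6 members were higher (Ctsb, Gla, Gaa, Man2b1, Neu1 and Cd63) and 1 lower (Lipa), where 3.36% of all genes were higher and 2.13% lower.

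**Figure D4:**
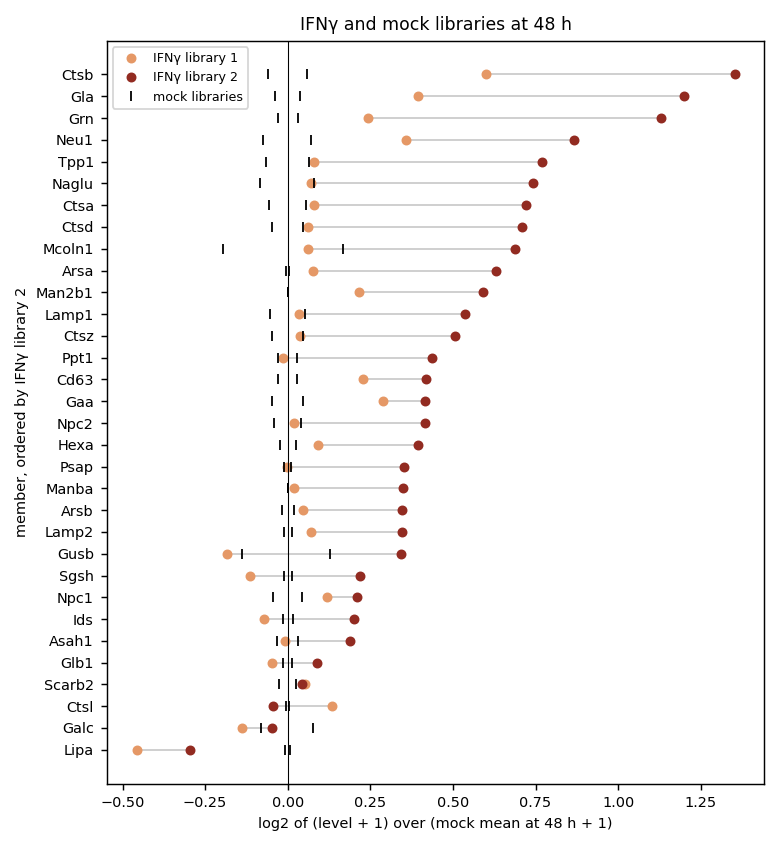
Log2 ratio of each library at 48 h to the mock mean at 48 h, per member, with IFNγ library 1 in orange and library 2 in dark red, joined by a line, and mock libraries as black ticks. Library 2 lies to the right of library 1 for 30 of 32 members, the exceptions being Scarb2 and Ctsl.

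By 91 h most of the 33 genes were above T0 in mock cells. In mock cells at that time, against T0, 28 of 33 members were higher and 3 lower, where 37.2% of all tested genes were higher and 37.1% lower (74.3% in all). The median log2 difference was 0.66, beside 0.00 over all genes. Both the 33 and this median include Cln3, which was not called and reached the minimum level in mock cells only. At 23.5 h, 15 of 32 were higher and 0 lower, where 8.32% and 6.34% of all genes were (14.7% in all), with a median of 0.15. At 48 h, 13 of 32 were higher and 10 lower, where 32.0% and 31.4% of all genes were (63.4% in all), with a median of 0.04. The member shares at 48 h are near those of all genes. These 3 comparisons share the T0 libraries, and each shares its mock libraries with an IFNγ comparison. At 91 h 29 of the 31 calls passed under every alternative run, against 14 of 23 at 48 h and 0 of 15 at 23.5 h. At 23.5 h 0 passed upward without the variance trend, where 0.144% of all genes did. Leaving out T0 library 1 or 2 there left 9 or 7, where 5.58% or 4.22% of all genes were higher. At 48 h leaving out T0 library 2 left 7 members higher, where 25% of all genes were. Markers of other cell types moved in the same comparisons. The fibroblast markers summed to 328 in mock cells at 91 h and 490 at T0, and 3 of 4 were lower (median log2 difference -1.47, lowest -3.17). Lck stood at 130 in mock cells at 91 h and 25.5 at T0 and was higher (log2 difference 2.31), and Vwf at 166 and 236 and was lower (-0.51). At 48 h Lck (2.21) and Vwf (0.86) were higher than T0, with 1 fibroblast marker higher and 2 lower, and at 23.5 h 3 of 4 fibroblast markers were lower. Of the myeloid markers, Lyz2 was higher than T0 at 48 h (log2 difference 1.56) and Cd68 at 91 h (0.91). Their T0 levels of 11.7 and 17.6 lay under the minimum level of 20, and 0 of 2 tested were called at 23.5 h. Of the melanoma markers tested 2 were higher and 2 lower at 91 h. The part of these markers in the change with time was not tested.

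By the adjusted p of the authors' deposited table, 10 members were higher and 0 lower in mock cells than at T0 at 23.5 h, where 3.79% of genes were higher and 1.97% lower. At 48 h 13 were higher and 10 lower by it (26.3% and 25.8% of genes), and at 91 h 27 and 3 (30.6% each way). Of the 33 members 24 had their highest group mean with IFNγ at 91 h. T0 was the lowest group for 16 and mock at 48 h for 14. The order of groups was not worked out over all genes, so these counts have no share to stand against. Per kilobase of exon, Ctsd (8204 normalised reads per kb), Psap (4942) and Lamp1 (4867) had the highest levels at T0.

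Among the proteases, Ctsl changed most with time, as it did among all members. It held 14028 and 12275 normalised reads in mock cells at 91 h, against 2208 and 2240 at T0 (log2 difference 2.56, SE 0.05, limma adjusted p 2.1e-13). Per kilobase of exon its level ranked 20 among the members at T0 (343 normalised reads per kb) and 9 in mock cells at 91 h (2027). Ctsb held 9202 and 8696 normalised reads in mock cells at 23.5 h, against 5725 and 5904 at T0. Its level in mock cells was 9207 and 8479 at 48 h and 14248 and 13869 at 91 h, and its log2 differences from T0 were 0.62, 0.60 and 1.27 at the 3 times, all called.

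Ctsd, Tpp1 and Ctsa dipped at 48 h and were above T0 at 91 h. Ctsd held 13079 and 13952 normalised reads in mock cells at 48 h, against 19161 and 19415 at T0 (log2 difference -0.51, SE 0.05, limma adjusted p 1.6e-05). At 91 h mock cells held 29571 and 29420 normalised reads of Ctsd (log2 difference 0.61, SE 0.04, limma adjusted p 5.1e-09). Tpp1 held 3003 and 3289 normalised reads in mock cells at 48 h, against 4785 and 4686 at T0 (log2 difference -0.59, SE 0.06, limma adjusted p 1.9e-05). In each case the libraries stand apart from T0. At 91 h mock cells held 9156 and 8562 normalised reads of Tpp1 (log2 difference 0.90, SE 0.04, limma adjusted p 4.9e-10). Ctsa held 2123 and 2296 normalised reads in mock cells at 48 h, against 2729 and 2918 at T0 (log2 difference -0.35, SE 0.07, limma adjusted p 0.00101). At 91 h mock cells held 5437 and 4964 normalised reads of Ctsa (log2 difference 0.88, SE 0.05, limma adjusted p 4.3e-09). Both mock libraries thus lay below both T0 libraries at 48 h and above them at 91 h for these 3 genes. Ctsz was the protease not called at 91 h, with 5024 and 4955 normalised reads in mock cells at 91 h, against 5321 and 5287 at T0 (log2 difference -0.09, SE 0.04, limma adjusted p 0.0505).

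The dip at 48 h was shared by members of other roles. In all, 8 members were lower than T0 in mock cells at 48 h and higher at 91 h: Ctsa, Ctsd, Tpp1, Neu1, Ppt1, Grn, Lamp1 and Mcoln1. At 48 h 31.2% of tested members were lower, beside 31.4% of all genes. The share of all genes with both calls was not worked out, so the dip is not shown to be particular to the members. Grn held 2425 and 2530 normalised reads in mock cells at 48 h, against 3684 and 3586 at T0 (log2 difference -0.55, SE 0.06, limma adjusted p 2.0e-05). By 91 h its level was 7779 and 6729 normalised reads (log2 difference 0.99, SE 0.06, limma adjusted p 4.0e-09). Grn was thus below T0 and later nearly 2-fold above it. Lamp1 held 8818 and 9478 normalised reads in mock cells at 48 h, against 12813 and 13224 at T0 (log2 difference -0.51, SE 0.06, limma adjusted p 2.4e-05). By 91 h Lamp1 stood at 20156 and 19848 normalised reads (log2 difference 0.62, SE 0.04, limma adjusted p 6.0e-09). The groups are apart both times. Mcoln1 held 276 and 355 normalised reads in mock cells at 48 h, against 487 and 451 at T0 (log2 difference -0.58, SE 0.12, limma adjusted p 0.00201). By 91 h Mcoln1 stood at 965 and 943 normalised reads (log2 difference 1.02, SE 0.07, limma adjusted p 1.9e-08). Ppt1 held 853 and 888 normalised reads in mock cells at 48 h, against 1300 and 1447 at T0 (log2 difference -0.66, SE 0.08, limma adjusted p 3.9e-05). Neu1 had log2 differences from T0 of -0.25 at 48 h and 1.11 at 91 h. With equal totals of reads in place of size factors, 8 in place of 10 members were lower at 48 h. Neu1 and Ctsz were those no longer called, and 14 in place of 13 were higher. Of all genes 26.8% were lower and 35.9% higher with equal totals, against 31.4% and 32.0% in the main fit.

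A further 13 members were above T0 at both 48 and 91 h: Ctsb, Ctsl, Hexa, Glb1, Gaa, Naglu, Arsa, Asah1, Lipa, Psap, Lamp2, Scarb2 and Npc1. The share of all genes above T0 at both times was not worked out. Naglu held 3650 and 4087 normalised reads in mock cells at 48 h, against 2473 and 2402 at T0 (log2 difference 0.66, SE 0.07, limma adjusted p 1.4e-05). By 91 h Naglu stood at 4075 and 3786 normalised reads (log2 difference 0.69, SE 0.05, limma adjusted p 2.1e-08). Scarb2 held 1684 and 1625 normalised reads in mock cells at 48 h, against 995 and 1075 at T0 (log2 difference 0.68, SE 0.07, limma adjusted p 1.8e-05). By 91 h Scarb2 stood at 1526 and 1551 normalised reads (log2 difference 0.57, SE 0.06, limma adjusted p 7.9e-07). For both genes the mock libraries were clear of T0 each time. Gla and Gaa were among the highest at 91 h. Gla held 182 and 192 normalised reads in mock cells at 48 h, against 202 and 190 at T0, which overlap (log2 difference -0.07, SE 0.12, limma adjusted p 0.636). By 91 h Gla stood at 506 and 471 normalised reads (log2 difference 1.31, SE 0.10, limma adjusted p 4.5e-08). Gaa held 8660 and 8814 normalised reads in mock cells at 91 h, against 3492 and 3608 at T0 (log2 difference 1.30, SE 0.04, limma adjusted p 5.9e-12). With Ctsb, Ctsl, Neu1 and Mcoln1 these made 6 of 33 members called at least 2-fold above T0 at 91 h. Of all 12787 genes tested, 2539 were called with at least a 2-fold difference, both directions counted. Nothing particular to the members is read from this count.

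Arsb, Gusb and Galc were below T0 at 91 h. Arsb held 601 and 632 normalised reads in mock cells at 91 h, against 952 and 1030 at T0 (log2 difference -0.68, SE 0.07, limma adjusted p 7.7e-07). At 23.5 h Arsb had been above T0 (log2 difference 0.34, SE 0.06, limma adjusted p 0.00168). Gusb held 1922 and 2312 normalised reads in mock cells at 48 h, against 3766 and 3671 at T0 (log2 difference -0.82, SE 0.08, limma adjusted p 1.3e-05). It was the member lower than T0 at both 48 and 91 h. By 91 h Gusb stood at 2907 and 2544 normalised reads (log2 difference -0.45, SE 0.06, limma adjusted p 8.9e-06). Galc held 1248 and 1214 normalised reads in mock cells at 91 h, against 1469 and 1378 at T0 (log2 difference -0.21, SE 0.05, limma adjusted p 0.00345). Cln3, at 2.14 normalised reads per kb the lowest member at T0, held 26.2 and 15.5 normalised reads in mock cells at 91 h, against 12.7 and 12 at T0, and was not called (log2 difference 0.66, SE 0.38, limma adjusted p 0.129). Cln3 lay under the minimum level at T0 and was tested through its mock mean. That choice favours a positive difference, so nothing is read from its direction. As a description, the 11 members with a TCACGTG promoter, Cln3 among them, had a median log2 difference from T0 of 0.69 at 91 h (0.31 to 1.31). The 19 with a promoter lacking it had a median of 0.49 (-0.68 to 2.56), so the ranges overlap. These medians were 0.21 with the letters and 0.14 without in mock cells at 23.5 h, and -0.02 with and -0.01 without at 48 h. For IFNγ against mock at 23.5 h they were 0.17 with and 0.18 without. The same pair was 0.37 with and 0.21 without at 48 h, then 0.18 with and 0.17 without at 91 h.

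**Figure D5:**
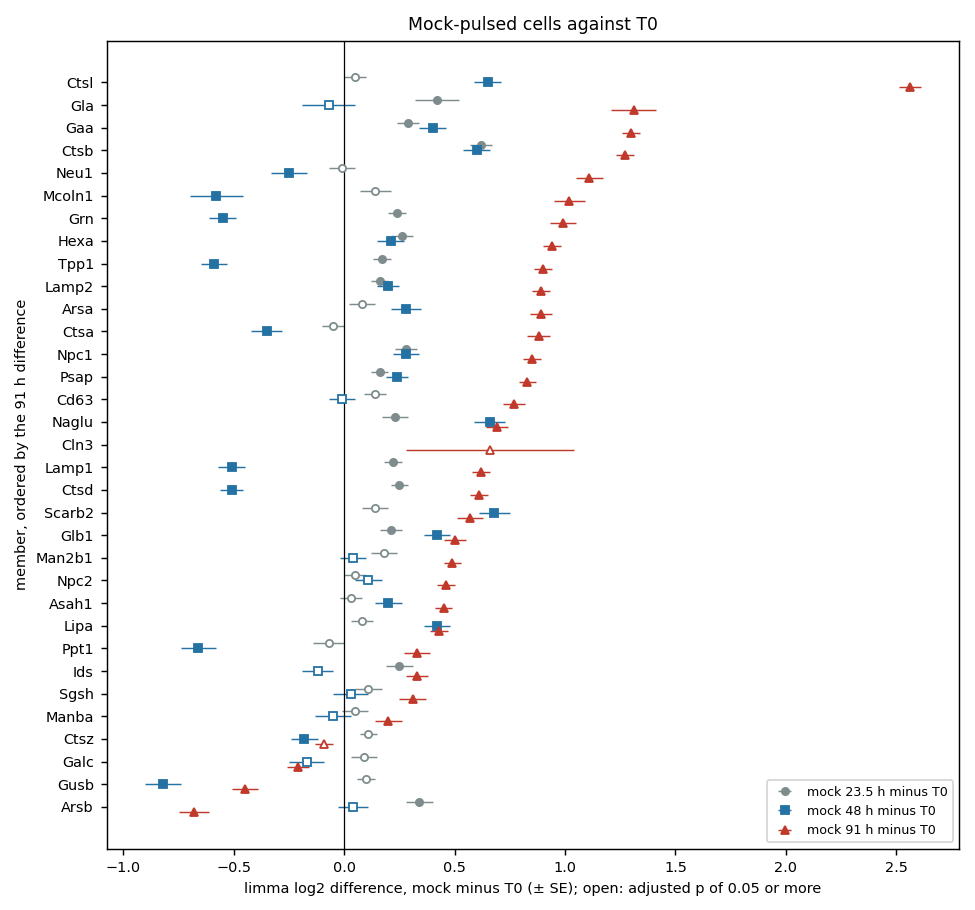
Limma log2 difference of mock minus T0 per member, with its standard error as a bar, at 23.5 h (grey circles), 48 h (blue squares) and 91 h (red triangles), in the order of the 91 h values. Filled points passed an adjusted p of 0.05. Ctsl lies at 2.56 and Arsb at -0.68 at 91 h, and the 48 h points run from -0.82 (Gusb) to 0.68 (Scarb2).

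Lists of other genes of the pathway, none of them members, were read beside these values. Their counts stand against the shares over all genes, which with IFNγ were 8.55% higher and 6.06% lower at 23.5 h and 8.75% and 7.53% at 91 h. All calls in these lists come from the main fit alone and were not followed through the alternative runs. Without the variance trend, 2.37% of all genes were higher with IFNγ at 23.5 h and 0.571% at 91 h. Of 36 other lysosomal hydrolases and cofactors tested, 11 were higher with IFNγ and 0 lower at 23.5 h. Of 37 at 91 h, 15 were higher and 0 lower. Ctso, a cysteine cathepsin, held 456 and 480 normalised reads with IFNγ, against 139 and 154 with mock, at 23.5 h (log2 difference 1.67, SE 0.10, limma adjusted p 1.7e-07). At 91 h Ctso held 544 and 511 normalised reads with IFNγ, against 299 and 312 with mock (log2 difference 0.79, SE 0.09, limma adjusted p 2.5e-05). The gap is wide both times and narrower at 91 h, with a change of a log2 value of -0.88 ± 0.13 (SE, limma adjusted p = 5.4e-04). Smpd1, the acid sphingomyelinase, held 2987 and 2963 normalised reads with IFNγ, against 1970 and 1795 with mock, at 23.5 h (log2 difference 0.66, SE 0.05, limma adjusted p 3.6e-06). Dpp7, a dipeptidyl peptidase, held 917 and 982 normalised reads with IFNγ, against 626 and 667 with mock, at 23.5 h (log2 difference 0.55, SE 0.06, limma adjusted p 1.2e-04). These arms do not overlap either. At 91 h the next largest after Ctso were Siae, a sialic acid esterase (log2 difference 0.44, SE 0.08, limma adjusted p 0.00119), and Hyal1, a hyaluronidase (log2 difference 0.37, SE 0.09, limma adjusted p 0.0093).

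Among 27 other membrane proteins, 6 were higher with IFNγ and 2 lower at 23.5 h. Laptm4a (log2 difference 0.44, SE 0.05, limma adjusted p 1.2e-04) and Tmem192 (log2 difference 0.33, SE 0.06, limma adjusted p 0.00298) were higher. Hgsnat, an acetyltransferase of heparan sulfate breakdown, was lower (log2 difference -0.31, SE 0.05, limma adjusted p 8.2e-04). At 91 h 7 were higher and 1 lower. Cd68, a lysosomal glycoprotein typical of macrophages, held 107 and 87.3 normalised reads with IFNγ, against 44.8 and 25.3 with mock (log2 difference 1.49, SE 0.26, limma adjusted p 9.9e-04). Its level is low, and the IFNγ libraries are the higher ones. Ctns, the cystine transporter, was higher too (log2 difference 0.28, SE 0.08, limma adjusted p 0.0207), and Hgsnat was lower again (log2 difference -0.24, SE 0.05, limma adjusted p 0.00382).

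The V-ATPase, the proton pump that acidifies the lysosome, had 11 of 19 tested subunits higher and 1 lower with IFNγ at 23.5 h, and 6 higher and 0 lower at 91 h. Tcirg1, a membrane subunit, held 4552 and 4759 normalised reads with IFNγ, against 3387 and 3479 with mock, at 23.5 h (log2 difference 0.44, SE 0.04, limma adjusted p 3.8e-05). At 91 h Tcirg1 held 3617 and 3953 normalised reads with IFNγ, against 2984 and 2751 with mock (log2 difference 0.40, SE 0.06, limma adjusted p 1.8e-04). The arms were apart both times. Atp6v0e2 was the subunit lower at 23.5 h (log2 difference -0.26, SE 0.04, limma adjusted p 0.00227), and Atp6v0a2 was higher (log2 difference 0.25, SE 0.04, limma adjusted p 0.00307). At 91 h Atp6v1e1 and Atp6ap1 came next after Tcirg1, with log2 differences of 0.30 and 0.30. In mock cells against T0, 1 of 19 was higher and 10 were lower at 48 h, where 32.0% of all genes were higher and 31.4% lower. The largest log2 differences there were -0.87 for Atp6v0a2, -0.74 for Atp6v0c and -0.69 for Atp6v1c1. At 91 h 11 were higher and 1 lower, led by Atp6v1b2 (1.05), Atp6v1f (0.82) and Atp6ap2 (0.81).

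Of the factors that bind CACGTG motifs, Mitf was higher with IFNγ at both times. It held 15288 and 15585 normalised reads with IFNγ, against 13102 and 13308 with mock, at 23.5 h (log2 difference 0.23, SE 0.04, limma adjusted p 0.00358). At 91 h Mitf held 11519 and 10467 normalised reads with IFNγ, against 8178 and 9099 with mock (log2 difference 0.35, SE 0.06, limma adjusted p 7.4e-04). The arms do not overlap. Tfeb overlapped at 23.5 h (log2 difference 0.04, SE 0.08, limma adjusted p 0.788). At 91 h Tfeb held 350 and 317 normalised reads with IFNγ, against 253 and 263 with mock, and was higher (log2 difference 0.37, SE 0.10, limma adjusted p 0.0246). Tfe3 overlapped at 23.5 h (log2 difference -0.03, SE 0.05, limma adjusted p 0.768). At 91 h Tfe3 held 1972 and 2111 normalised reads with IFNγ, against 2561 and 2677 with mock, and was lower (log2 difference -0.36, SE 0.05, limma adjusted p 2.9e-04). Its effect changed between these times by a log2 value of -0.33 ± 0.08 (SE, limma adjusted p = 0.0155).

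Against T0, the 3 factors went different ways in mock cells. Tfe3 was higher, with 2561 and 2677 normalised reads in mock cells at 91 h, against 1264 and 1259 at T0 (log2 difference 1.05, SE 0.05, limma adjusted p 3.4e-10). Mitf was lower, with 8178 and 9099 normalised reads in mock cells at 91 h, against 11922 and 12338 at T0 (log2 difference -0.49, SE 0.05, limma adjusted p 8.9e-07). Tfeb was lower, with 253 and 263 normalised reads in mock cells at 91 h, against 366 and 389 at T0 (log2 difference -0.55, SE 0.09, limma adjusted p 1.6e-04). No mock library of the 3 overlapped T0. Tfec was not listed.

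Nutrient sensing, sorting and autophagy were read in the same way. Of 15 genes of nutrient sensing at the lysosome (Ragulator, Rag GTPases and their regulators) 0 passed limma at 23.5 h, with 3 at an unadjusted p under 0.05. Of 14 at 91 h, 5 were higher and 0 lower, led by Lamtor4 (log2 difference 0.33), Rragd (0.25) and Lamtor1 (0.18). Of 19 genes of enzyme sorting 3 were higher and 2 lower at 23.5 h. Gnptg, a subunit of the enzyme that makes the mannose phosphate tag, was higher (log2 difference 0.51, SE 0.08, limma adjusted p 0.00114). Gnptab, its catalytic partner (log2 difference -0.20, SE 0.06, limma adjusted p 0.0367), and the tag's receptor Igf2r (log2 difference -0.20, SE 0.05, limma adjusted p 0.0295) were lower. At 91 h the 1 call was Sort1, a sorting receptor, which held 14110 and 13628 normalised reads with IFNγ, against 10397 and 10138 with mock (log2 difference 0.43, SE 0.05, limma adjusted p 1.4e-05). Of 27 autophagy genes 6 were higher and 0 lower at 23.5 h, led by the receptor Optn (log2 difference 0.52), Atg14 (0.38) and Gabarap (0.23). At 91 h 2 were higher, Gabarap (0.31) and Map1lc3b (0.17), and 2 lower. Those 7.41% each way, and the 5.26% of sorting genes higher at 91 h, are near the shares over all genes. The cargo receptor Sqstm1 was among the lower, and held 38896 and 39884 normalised reads with IFNγ, against 50759 and 47933 with mock (log2 difference -0.32, SE 0.05, limma adjusted p 5.5e-04).

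With time in mock cells the same lists moved widely, as did all genes (37.2% higher and 37.1% lower at 91 h). At 91 h against T0, 24 of 37 other hydrolases were higher and 4 lower. Ctsf, a cysteine cathepsin, held 65.6 and 70.2 normalised reads in mock cells at 91 h, against 8.19 and 3.28 at T0 (log2 difference 3.46, SE 0.39, limma adjusted p 3.1e-06). Arsg, a sulfatase of heparan sulfate breakdown, held 648 and 600 normalised reads in mock cells at 91 h, against 112 and 130 at T0 (log2 difference 2.36, SE 0.11, limma adjusted p 4.2e-10). Idua, the alpha-iduronidase, held 621 and 622 normalised reads in mock cells at 91 h, against 251 and 237 at T0 (log2 difference 1.35, SE 0.08, limma adjusted p 9.4e-09). All 3 stand clear of T0. Ctsf lay under the minimum level of 20 at T0 and was tested through its mock libraries, so the size of its difference is not set beside the others. Other membrane proteins had 18 of 27 higher and 6 lower, with log2 differences of -1.75 for Abcb9, a peptide transporter, 1.25 for Lmbrd1, which serves cobalamin export, and 1.15 for the chloride transporter Clcn7. Autophagy genes had 19 of 27 higher and 7 lower, with Calcoco1 at 2.22, Map1lc3a at 1.74 and Sqstm1 at 1.68. Nutrient sensing had 9 of 15 higher and 2 lower, with Rragb at -1.51 (10.5 normalised reads in mock cells, under the minimum level, and 32.3 at T0), Fnip2 at 0.79 and Rraga at 0.70. Sorting had 7 of 19 higher and 6 lower, with Cln8 at 1.26, Gnptg at 0.78 and Ap1m1 at -0.72, counts near the shares over all genes.

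At 48 h, 16 of 37 other hydrolases were higher than T0 and 8 lower, where 32.0% of all genes were higher and 31.4% lower. Ctso (1.82) and Arsg (1.78) had large log2 differences, and Ctsf had 2.15 with a T0 level under the minimum. Of 26 membrane proteins 8 were higher and 5 lower, with Mfsd8 at 1.10, Tpcn1 at -0.88 and Ctns at -0.82. Sensing had 1 of 15 higher and 7 lower, sorting 4 of 19 higher and 8 lower, and autophagy 9 of 26 higher and 9 lower (34.6% each way, near the share of all genes). At 23.5 h, where 8.32% of all genes were higher than T0, 6 of 36 other hydrolases, 5 of 19 pump subunits and 3 of 15 sensing genes were higher. So were 3 of 19 sorting, 2 of 27 membrane and 2 of 27 autophagy genes, and no list had more than 1 gene lower.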

How the data were processed

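RNA was measured by polyA sequencing in 7 samples, 1 per group. The authors worked on mm10 and GRCm38 with HTSeq 0.5.3, Picard 1.124, STAR 2.5.0a and DESeq (no version), per the submitters' processing notes. The annotation and strand setting are not given in sources used here. Per the file headers, the authors deposited 6 tables, each with the mean signal of every listed gene at T0 and in 1 other group. This behaves as reads scaled by library size factors. The deposited log2 value is that of the T0 mean over the other mean, by the authors. The deposited p-value columns hold the authors' DESeq p and adjusted p. Entries naming no gene (4 in each of 5 tables, 57.1% to 70.3% of the listed totals and 63.9% at T0) were left out, and 0 value columns went unused.

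The means behave as averages over 2 libraries of whole reads, so the reads of 2 libraries were solved from them by searching whole-number pairs (99.6% of 157036 values gave exactly 1 pair). At levels of 3000 or more only pairs within a log2 ratio of 2 were accepted. Library numbers name a library and pair nothing. All libraries were put on 1 scale through T0, since the tables were normalised separately. Genes of at least 20 normalised reads in either group were tested with limma 3.58.1 (R 4.3.3) with a variance trend on log2(normalised reads + 1), 2-sided, with Benjamini-Hochberg adjustment over all genes. Depth ran from 12894823 to 24459426 reads per library, and the p-values rest on 2 libraries a group. Tables and figures used Python 3.11.15, numpy 2.4.6, pandas 2.3.3 and matplotlib 3.10.9, and the solving and the test were tested on simulated data. Exon lengths and overlaps come from the GENCODE annotation of GRCm38, and promoters from RefSeq.

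Members, lists and tests were chosen with earlier results of these data known. A member is given by library where it passed in an IFNγ comparison at 23.5 or 91 h or in the change of effect, or was among the 3 highest or 3 lowest of a comparison. From each wider list, the called genes with the 3 largest differences are named, and the factors Mitf, Tfeb, Tfe3 and Tfec always. Alternatives were no variance trend, 1 fit over all libraries, a pseudocount of 10, no minimum level, equal totals, each library left out, and the authors' adjusted p. A further promoter motif is not reported here.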

Additional observations from a re-analysis of the deposited data

Results flagged for a closer look

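For 4 members the effect of IFNγ against mock differed between 23.5 and 91 h, as tested by the interaction term of limma (91 h minus 23.5 h). These are 2 upward and 2 downward of 31 tested, where 3.94% of all genes changed upward and 5.34% downward, and nothing particular to the members is read from this count. Lipa, the acid lipase, had a change of 0.43 (log2), from a negative effect at 23.5 h and a positive one at 91 h. Ids, a sulfatase, had a change of 0.34, being called lower with IFNγ at 23.5 h and not called at 91 h. Gla, a galactosidase, had a change of -0.40, and Npc1, a cholesterol transporter, one of -0.23, both called higher with IFNγ at 23.5 h and not called at 91 h. The Lipa call passed without each single library, while those of Ids, Gla and Npc1 were lost without 3, 8 and 6 of the 8 libraries left out in turn. The libraries behind these values are given above, and no cause was tested.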

How the results depend on the processing

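No paired analysis was possible because each group has 1 labelled sample and the recovered library numbers pair nothing. Without the variance trend, 2 members were higher and 0 lower with IFNγ at 23.5 h, 0 were higher at 91 h, 0 were higher in mock cells at 23.5 h than at T0, and the change of effect passed upward for 1 and downward for 0. With 1 fit over all libraries these counts were 1 and 0, 0, 0, and 0 and 0, while at 48 h 6 members were higher with IFNγ and 1 lower. With equal totals the change of effect passed downward for 1. Leaving out 1 library at a time gave, with IFNγ, 8 to 20 members higher and 0 to 3 lower at 23.5 h, 0 to 22 higher and 0 to 1 lower at 48 h, and 9 to 16 higher at 91 h (10 without mock library 2). In mock cells against T0 it gave 7 to 19 higher at 23.5 h and 7 to 14 at 48 h. For the change of effect it gave 1 to 3 upward and 0 to 1 downward. The shares of all genes called moved between these settings too, so the member counts are not to be read alone. Without the variance trend, 2.37% of all genes were higher with IFNγ at 23.5 h and 0.571% at 91 h. In the main fit these shares were 8.55% and 8.75%. Shares for several runs with a library left out are given above beside their member counts. The cause of the shifts in counts and shares was not tested. The other counts stayed within 1.5 times. Of the values of single members under all alternatives, 1851 kept their side of the threshold, 228 lost it, 46 gained it and 0 reversed. Depth limits Cln3 most, at 12 to 26.2 normalised reads.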
